A study of Mus musculus with 6 samples.

Results

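Cytosolic ribosomal proteins, the protein part of the ribosomes that translate nuclear genes in the cytoplasm, were followed in retinas of a mouse strain that develops glaucoma. The members were all genes whose symbol, alone on its probe set, begins with Rpl or Rps followed by a digit, or is Rplp0, Rplp1, Rplp2 or Rpsa, without the S6 kinase genes, pseudogene symbols and Rps19bp1. They came to 49 genes read by 105 of 45037 probe sets, of which 48 belong to the large subunit and 57 to the small one. A probe set is a group of short oligonucleotides on an Affymetrix array that together read one transcript. A further 110 probe sets name a ribosomal protein gene beside another gene or a pseudogene copy and were left out of the members. Rplp1, Rpl5, Rpl24, Rpl32 and Rps27a were among the genes for which no probe set named the gene alone, so they have no value here.

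The arrays held whole-retina RNA of DBA/2J females aged 3 months (3 retinas) or 8 months (3 retinas), each retina from a separate animal, and levels are on the log2 scale. DBA/2J is an inbred strain carrying pigment gene mutations that lead to iris disease, raised eye pressure and loss of ganglion cells. The last intraocular pressure lay between 15.3 and 19.1 mmHg in the 3-month eyes and between 25.3 and 30.4 mmHg in the 8-month eyes, the animals of each age having been identified by monthly pressure readings as normal or raised. All arrays are of this strain. Every 8-month eye had a higher pressure than every 3-month eye, so age and pressure cannot be told apart. All 3-month retinas were left ones, while 8-month retinas 2 and 3 were right ones.

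The tissue label was checked against fixed markers, given as the mean log2 level over the genes of a list. Photoreceptor markers were high, at a mean of 11.67 or more in every retina, with 8 of 8 genes above the filter on low values. Markers of red blood cells stood near the array's floor, at a mean of 2.93 to 3.02 over all retinas, with 1 of 3 genes above the filter and Hba-a1 and Alas2 not above it. Lens markers set a pair of retinas apart. They averaged 9.34 in the younger retina 3 and 8.02 in the older retina 1, compared with 3.76 to 5.05 in the others, with 8 of 12 genes above the filter. Pigment epithelium markers lay between 4.09 and 5.90 at 3 months and between 4.41 and 5.50 at 8 months, 6 of 8 being above the filter.

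A ribosome has a small subunit, which binds messenger RNA and reads its codons, and a large subunit, which joins amino acids and lets the chain out through a tunnel. Their proteins are made in step, in part because many of their messenger RNAs begin with a terminal oligopyrimidine tract, a stretch of C and T letters at the very start through which the TOR pathway controls their translation as a group. In the retina, photoreceptors renew their outer segments without pause and so keep protein synthesis high. Arrays read the amount of messenger RNA and not its translation.

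RefSeq start windows on the GRCm38.p6 build, from 250 bases before to 50 after a gene's start, were matched for 43 of the 49 genes by gene identifier. A C at the annotated start followed by at least 4 letters that are C or T, the form of a terminal oligopyrimidine tract, was found in 8 of them, or 18.6%, against 3.01% of all 27025 genes with a window. These 8 are shown because they carry the tract that the family is known for exactly at the annotated start. Each line holds 40 bases before and 20 after the start, on the gene's own strand, with the longest run of C and T in capitals.
Rpl14: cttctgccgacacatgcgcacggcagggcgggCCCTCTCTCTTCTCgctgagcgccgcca
Rpl35: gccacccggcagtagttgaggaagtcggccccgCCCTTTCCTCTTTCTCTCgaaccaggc
Rpl38: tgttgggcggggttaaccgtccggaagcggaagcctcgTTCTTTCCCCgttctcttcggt
Rplp2: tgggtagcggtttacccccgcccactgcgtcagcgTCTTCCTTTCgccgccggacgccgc
Rps10: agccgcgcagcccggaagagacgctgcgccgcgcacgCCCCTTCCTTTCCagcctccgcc
Rps18: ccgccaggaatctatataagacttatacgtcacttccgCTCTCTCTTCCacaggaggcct
Rps27: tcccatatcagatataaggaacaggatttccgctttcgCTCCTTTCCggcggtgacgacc
Rps6: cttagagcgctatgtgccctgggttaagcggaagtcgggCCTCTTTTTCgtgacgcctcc
The windows lie at chr9:120571477-120571536, plus strand for Rpl14; chr2:39005112-39005171, minus strand for Rpl35; chr11:114668540-114668599, plus strand for Rpl38. Those of Rplp2, Rps10 and Rps18 lie at chr7:141447611-141447670, plus strand, chr17:27635225-27635284, minus strand and chr17:33955646-33955705, minus strand. Those of Rps27 and Rps6 lie at chr3:90213629-90213688, minus strand and chr4:86857348-86857407, minus strand. A run of at least 7 letters that are C or T on the gene's strand, between 20 bases before and 50 after the start, was found in 36 of 43 members (83.7%) and in 41.6% of all genes.

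The letters CCGGAAG, the core bound by ETS-family factors, were searched on both strands of the 300-base window. They stood in 21 of 43 members, or 48.8%, in 9.93% of all genes with a window and in 19.7% of the other genes above the filter. GCCATNTT, the core bound by YY1, was found in 16.3% of members, 6.96% of all genes and 10.04% of the other genes above the filter. The TATAAA box was found in 14.0%, 15.7% and 8.62% of them. For this box the members thus lay below all genes but above the other genes that passed the filter. On the arrays described below, the median log2 difference between 8 and 3 months was -0.118 over 19 measured members with CCGGAAG and -0.078 over 19 without it. It was -0.089 over 7 with the tract at the annotated start and -0.110 over 31 without it there. That split depends on where the start is annotated, since 36 of 43 members had a run of at least 7 C or T letters near it. The 31 are therefore not genes shown to lack the tract. All these medians are descriptions, and the differences between such groups were not tested.

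Most members read far above background. A probe set was kept where at least 3 of the 6 retinas read 4 or more on the log2 scale, which kept 91 of 105 member probe sets and 44 of 49 genes, 23 of the large and 21 of the small subunit. A gene took the values of its brightest kept probe set, and 33 of the 44 had a mean of 10 or more. The values of different probe sets depend on their oligonucleotides, so beyond this choice the genes were not ranked against each other by level. Of the kept probe sets, 42 carry a suffix that marks oligonucleotides able to match other transcripts, which for this family includes many pseudogene copies. The suffix is also on 15 of the 44 probe sets chosen for a gene.

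For 5 genes no probe set passed. Rpl3l, the muscle form of Rpl3, read 2.65 to 2.93, and Rpl39l, a germ-cell form of Rpl39, 2.82 to 3.02. Rpl12 read 3.18 to 3.92 and Rps16 2.25 in every retina. Rps6, the protein phosphorylated by S6 kinase, had a pair of probe sets, at 2.37 in every retina and at 3.70 to 4.21. Every cell needs Rpl12, Rps16 and Rps6, and these readings say only that the probe sets naming them alone did not pass the filter.

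Ribosomal protein genes of both subunits read slightly lower at 8 months, and no single gene passed the test. Of 44 genes 37 were lower and 7 higher, where 63.5% of all 11219 genes were lower. The median log2 difference was -0.104 over 23 large-subunit genes, of which 19 were lower, and -0.099 over 21 small-subunit genes, of which 18 were lower. Over all genes it was -0.058. The medians of the subunits equal levels 6.94% and 6.66% below those at 3 months, and that of all genes 3.92%.

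Tested over all 20973 kept probe sets with limma and Benjamini-Hochberg adjustment, 0 member probe sets passed 0.05, where 0.00477% of all probe sets did, and the smallest adjusted p among members was 0.205. With limma's trended and robust variance 0 passed as well. Taking limma's p unadjusted and under 0.05, 13 of 91 member probe sets were lower and 0 higher, or 14.3% lower, where 10.3% of all probe sets were lower and 4.63% higher. With 1 probe set per gene, 0 of 44 genes passed the adjusted test, where 0.00891% of all genes did, and 4 lower and 0 higher genes had an unadjusted p under 0.05, where 11.5% and 3.58% of all genes did. The 8-month retinas all lay below the 3-month ones in 16 of 44 genes, 36.4%, where this held for 16.9% of all genes, and all above in 2 (Rpl37 and Rpl39), where this held for 6.05%.

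The direction leans on how the arrays are scaled. The median level of all kept probe sets was itself lower in each 8-month retina. After centring every array on its median, 25 of 44 members were lower, or 56.8%, against 44.4% of all genes. That made 14 of 23 in the large and 11 of 21 in the small subunit, with medians of -0.021 and -0.016. The ages then lay apart with the older lower in 4 members and with the older higher in 5, against 7.45% and 15.7% of all genes. Quantile normalization gave 19 and 19 lower genes in the subunits and cyclic loess 19 and 18. Relative to the median of all genes, the members stood lower by a small amount under each of these scalings.

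**Figure D1:**
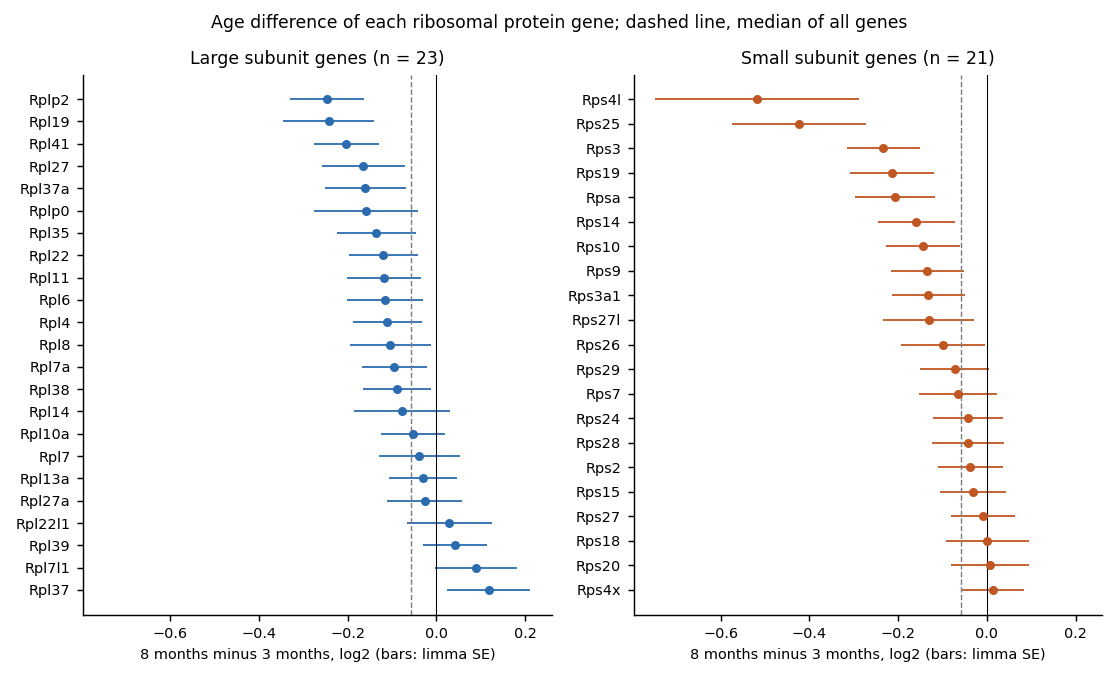
The difference between 8 and 3 months is plotted for each measured gene on the log2 scale, with limma's standard error as a bar, for large-subunit (left) and small-subunit genes (right). The points run from -0.25 for Rplp2 to 0.12 for Rpl37 on the left and from -0.52 for Rps4l to 0.0128 for Rps4x on the right, and most lie left of the dashed line, the median of all genes at -0.058.

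Single retinas differed about as much as the ages did. For each gene the 3-month mean was taken off, and the median of what remained was 0.048, -0.054 and 0.023 in the younger retinas 1, 2 and 3 for large-subunit genes and -0.058, -0.156 and -0.069 in the older ones. For small-subunit genes the medians were 0.050, -0.076 and 0.008 at 3 months and -0.084, -0.120 and -0.104 at 8 months. For all genes they were 0.011, -0.012 and -0.004 at 3 months and -0.064, -0.056 and -0.039 at 8 months. For both subunits the younger retina 2 lay close to the older retina 1, the other younger retinas stood above every older one, and the order of the 6 retinas was the same.

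The same retinas recur gene by gene. Among the 3-month retinas, number 2 was the lowest in 30 of 44 genes and number 1 the highest in 23. Among the 8-month ones, number 2 was the lowest in 26 and number 1 the highest in 27. Over all 6, the 8-month retina 2 was the lowest in 23 and the 3-month retina 1 the highest in 22. Within an age the members varied little, with a median within-age SD of 0.0793 against 0.134 for all genes (log2). By probe set it was 0.0779 for members with a mean of 10 or more and 0.134 for dimmer ones. The SD of other genes at like levels was not taken.

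**Figure D2:**
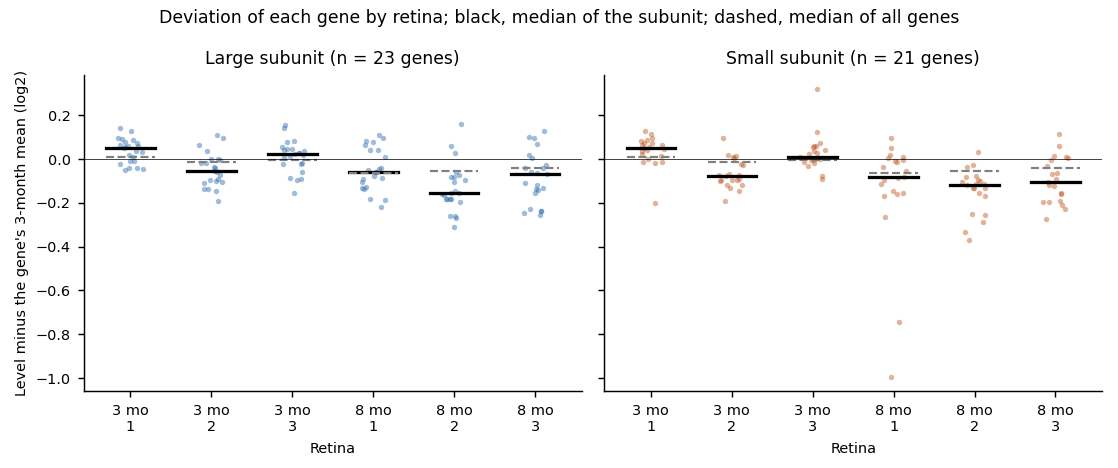
Each point is 1 gene in 1 retina, drawn as its log2 level minus that gene's 3-month mean, for large-subunit (left) and small-subunit genes (right). Black lines give the subunit's median and dashed lines that of all genes. 8-month retina 2 has the lowest medians, -0.156 and -0.120, and 3-month retina 2 is the 1 younger retina whose median lies below 0 in both panels.

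Leaving out single retinas moved the small subunit most. Its median was -0.166 without 3-month retina 2, -0.044 without 3-month retina 1 and -0.064 without 8-month retina 2, and without 3-month retina 1 the median of all genes, -0.049, was the lower. Over both subunits 29 of 91 member probe sets were lower and 2 higher at an unadjusted limma p under 0.05 without 3-month retina 2. The lower ones numbered 4, 6, 8, 4 and 7 without 3-month retinas 1 and 3 and 8-month retinas 1, 2 and 3. Without 8-month retina 1 there was also 1 higher. The share of all probe sets was not taken in these fits, so these counts have no background beside them. Without both lens-rich retinas, 20 of 23 large-subunit and 20 of 21 small-subunit genes were lower, with medians of -0.102 and -0.111. When eye side entered the model, so that the 1 older left retina was set against the 3 younger ones, 15 and 16 genes were lower, with medians of -0.058 and -0.084 beside -0.064 for all genes, so the large subunit's median then lay nearer to 0 than that of all genes.

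Some cell markers also separated the ages. Photoreceptor markers read 11.785 to 11.917 in the younger and 11.675 to 11.775 in the older retinas, a narrow gap, with a mean log2 difference of -0.14. Within this list Prph2, Rom1, Pde6b and Sag read lower in every older retina than in any younger one. Gnat1, Nrl, Crx and Pde6a overlapped between ages. Microglial markers read 4.72 to 4.73 at 3 months and 5.04 to 5.11 at 8 months, with 5 of 9 genes above the filter and C1qa, C1qc, Cx3cr1 and Cd68 not above it. Those of Müller glia read 10.69 to 10.88 and 10.91 to 10.98, 4 of 4 above the filter, and those of ganglion cells 8.73 to 8.87 and 8.66 to 8.68, 5 of 5 above it. By gene, Csf1r of the microglial list, Slc1a3 and Rlbp1 of Müller glia and Nefl, Thy1, Sncg and Rbpms of ganglion cells overlapped between ages. The other genes of these lists above the filter did not. The Gapdh control, as 3' minus 5' signal, read 0.707 to 0.751 at 3 months and 0.755 to 0.811 at 8 months (log2), and the actin control 1.62 to 1.87 and 1.71 to 1.84. The ages lay apart on Gapdh by a narrow gap and overlapped on actin. The part of cell makeup and RNA quality in the lower readings was not tested. In a whole retina, fewer cells of a type and less RNA per cell cannot be told apart.

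In the large subunit Rplp2, Rpl41 and Rpl19 had the smallest p values at their brightest probe set. Rplp2, which forms with Rplp0 and Rplp1 the stalk that calls elongation factors to the ribosome, read 11.87, 11.72 and 11.86 at 3 months (retinas 1, 2, 3) against 11.64, 11.51 and 11.57 at 8 months. All older retinas lay below all younger ones, with a log2 difference of -0.25 ± 0.084 (SE, n = 3 per age; limma, Benjamini-Hochberg adjusted p = 0.281). Rplp0, the stalk's base and a common reference gene in quantitative PCR, read 8.06, 8.01 and 8.24 at 3 months (retinas 1, 2, 3) against 8.15, 7.84 and 7.85 at 8 months. Its ages overlapped, 8-month retina 1 lying above a pair of younger ones, with a log2 difference of -0.16 ± 0.12 (SE, n = 3 per age; limma, Benjamini-Hochberg adjusted p = 0.538), and its sign turned with eye side as a covariate.

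Rpl41, a peptide of a few residues at the face between the subunits, read 12.03, 11.94 and 12.02 at 3 months (retinas 1, 2, 3) against 11.81, 11.80 and 11.77 at 8 months on its brightest probe set. The ages did not overlap there, with a log2 difference of -0.20 ± 0.074 (SE, n = 3 per age; limma, Benjamini-Hochberg adjusted p = 0.299), but this probe set is a less specific one. Of the other Rpl41 probe sets, 1454639_x_at and 1455578_x_at differed by 0.0319 and 0.0315 and 1433530_at by 0.20, each higher at 8 months on the log2 scale. Rpl19, whose long helix reaches to the small subunit, read 11.77, 11.44 and 11.68 at 3 months (retinas 1, 2, 3) against 11.41, 11.36 and 11.39 at 8 months. Every older retina lay below every younger one, with a log2 difference of -0.24 ± 0.10 (SE, n = 3 per age; limma, Benjamini-Hochberg adjusted p = 0.336).

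Rpl27 and Rpl37a had several probe sets that were all lower. Rpl27 differed by -0.27, -0.16 and -0.14 (log2), and its probe set 1416099_at read 10.29, 9.91 and 10.12 at 3 months (retinas 1, 2, 3) against 9.88, 9.84 and 9.79 at 8 months. The ages did not overlap on this probe set, the dimmest of the gene. They overlapped on the brightest, 1448217_a_at, and on 1453096_x_at. Rpl37a, a small zinc-binding protein, read 10.93, 10.65 and 10.93 at 3 months (retinas 1, 2, 3) against 10.50, 10.49 and 10.51 at 8 months on 1416217_a_at. The older retinas there lay close together and below all younger ones, with a log2 difference of -0.33 ± 0.099 (SE, n = 3 per age; limma, Benjamini-Hochberg adjusted p = 0.258). Its brightest probe set differed by -0.16 and a dim one, at 5.13 and 4.87, by -0.26.

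Rpl22, an RNA-binding protein near the tunnel exit, was lower on each of its probe sets, by log2 differences of -0.12, -0.16 and -0.12. Its paralogue Rpl22l1, which can take its place in the ribosome, differed by 0.0296 ± 0.095 (log2, SE, n = 3 per age; limma, adjusted p = 0.90) with overlapping ages. Of the tunnel-exit proteins measured, Rpl19, Rpl22, Rpl35 and Rpl38 were lower and Rpl39, at 5.64 and 5.69, was higher by 0.0412, its ages not overlapping. Rpl38, the gene of the skeletal mouse mutant Tail short, differed by -0.0890 ± 0.077, and Rpl11, which joins the particle of 5S ribosomal RNA and can bind Mdm2, by -0.12 ± 0.084 (log2, SE). Rpl27a, mutated in the sooty foot ataxia mouse, differed by -0.0261 on its bright probe set and by 0.25 on 1419799_at, which lies close to the filter. Rpl13a, a common reference gene, differed by -0.0300 on its brightest probe set and between -0.0571 and 0.0146 over its 4 probe sets.

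Rpl7l1, a paralogue of Rpl7, gave the smallest p of the whole family and also the clearest disagreement between probe sets. On 1439780_at it read 7.05, 6.93 and 6.94 at 3 months (retinas 1, 2, 3) against 6.59, 6.46 and 6.63 at 8 months, with a log2 difference of -0.41 ± 0.085 (SE, n = 3 per age; limma, Benjamini-Hochberg adjusted p = 0.205). On 1426386_at it read 6.17, 5.87 and 5.95 at 3 months (retinas 1, 2, 3) against 5.81, 5.44 and 5.62 at 8 months, with a log2 difference of -0.37 ± 0.13 (SE, n = 3 per age; limma, Benjamini-Hochberg adjusted p = 0.280). All older retinas lay below all younger ones on both. On 1452049_at it read 6.78, 6.73 and 6.99 at 3 months (retinas 1, 2, 3) against 6.95, 6.89 and 6.93 at 8 months, overlapping between ages, with a log2 difference of 0.0885 ± 0.092 (SE, n = 3 per age; limma, Benjamini-Hochberg adjusted p = 0.664). None of the 3 is marked as less specific, and the gene was counted as higher because 1452049_at has, by a narrow margin, the highest mean. Rpl7 itself differed by -0.0382 on its brightest probe set, without passing. Rpl37 had the largest higher reading of a large-subunit gene, at 6.06, 6.10 and 5.85 at 3 months (retinas 1, 2, 3) against 6.10, 6.16 and 6.10 at 8 months, with a log2 difference of 0.12 ± 0.094 (SE, n = 3 per age; limma, Benjamini-Hochberg adjusted p = 0.564). The ages were apart only narrowly and the reading rests on 1 less specific probe set.

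In the small subunit Rps3 and Rps25 had the smallest p values of the genes at their brightest probe set. Rps3, which lines the channel where messenger RNA enters and also acts in DNA repair, read 11.62, 11.46 and 11.53 at 3 months (retinas 1, 2, 3) against 11.37, 11.28 and 11.26 at 8 months. The older retinas all lay below the younger ones, with a log2 difference of -0.23 ± 0.082 (SE, n = 3 per age; limma, Benjamini-Hochberg adjusted p = 0.285). A second Rps3 probe set, 1455600_at, went the other way, with overlapping ages and a difference of 0.16 ± 0.11 (log2, SE). Rps25, a protein of the head that some viral internal ribosome entry sites need, read 6.55, 6.44 and 6.60 at 3 months (retinas 1, 2, 3) against 5.79, 6.16 and 6.37 at 8 months. The older retina 1 was the lowest, and the ages did not overlap, with a log2 difference of -0.42 ± 0.15 (SE, n = 3 per age; limma, Benjamini-Hochberg adjusted p = 0.292). Its value was -0.26 without the older retina 1, -0.23 without both lens-rich retinas, of which that is 1, and -0.74 with eye side in the model.

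Rps19 and Rpsa followed. Rps19, mutated in Diamond-Blackfan anaemia and in a dark-skinned mouse, read 10.82, 10.59 and 10.79 at 3 months (retinas 1, 2, 3) against 10.57, 10.45 and 10.54 at 8 months. Rpsa, which also occurs at the cell surface as a laminin receptor, read 10.34, 10.15 and 10.24 at 3 months (retinas 1, 2, 3) against 9.98, 9.99 and 10.14 at 8 months. All older values of each lay below the younger ones, with log2 differences of -0.21 ± 0.094 and -0.21 ± 0.09 (SE, n = 3 per age; limma, adjusted p = 0.348 and 0.344). Rps14, lost in the 5q- syndrome and part of the platform, differed by -0.16 and -0.0915 on its pair of less specific probe sets.

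Rps10, at the mouth of the messenger channel in the head, was lower on each of its 5 kept probe sets. They differed by -0.23, -0.14, -0.14, -0.18 and -0.26 (log2), the ages overlapping on 1439374_x_at. On 1456497_x_at it read 10.90, 10.76 and 10.91 at 3 months (retinas 1, 2, 3) against 10.58, 10.60 and 10.62 at 8 months, with the older retinas almost level and below all younger ones. Rps18, a head protein and frequent reference gene, split by probe set. It differed by 0.00118 on its brightest one, which is less specific, and by -0.23 and -0.22 on 1435712_a_at and 1448739_x_at, where the ages did not overlap. Close to the filter, at means of 4.23 and 4.27, 1421838_at differed by -0.12 without overlap and 1421837_at by 0.0185 with overlap. Rps20, the other dark-skin mouse gene, and Rps4x differed by 0.00672 and 0.0128, and Rps7 by -0.0655 (log2).

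Rps4l and Rps27l, the paralogues measured in the small subunit, were both lower. Rps4l, annotated as a transcribed pseudogene of the Rps4 family, read 5.14, 5.22 and 5.66 at 3 months (retinas 1, 2, 3) against 4.34, 5.01 and 5.11 at 8 months. The ages did not overlap, the older retina 1 lying lowest, with a log2 difference of -0.52 ± 0.23 (SE, n = 3 per age; limma, Benjamini-Hochberg adjusted p = 0.350). Its value was -0.28 without the older retina 1, -0.12 without both lens-rich retinas, of which that is 1, and -0.995 with eye side in the model. Rps27l, the p53-induced relative of Rps27, differed by -0.37, -0.19 and -0.13 on its probe sets, the first reading 7.50, 7.26 and 7.61 at 3 months (retinas 1, 2, 3) against 7.08, 7.12 and 7.08 at 8 months. That probe set is a less specific one, and the ages did not overlap there. They overlapped on 1435429_x_at and on the brightest, 1450925_a_at, which is specific. Rps27 differed by -0.00948 on a dim probe set at 4.76 and 4.75. The difference between partners was not tested.

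By position in the ribosome, 7 of 9 measured proteins of the small subunit's head were lower, with a median of -0.073. So were 2 of 2 at the messenger's entry (Rps2, Rps3) and 3 of 3 at its exit and the platform (Rps14, Rps26, Rps28), with medians of -0.135 and -0.099. Rps3 is counted in both head and entry, and the 1 measured gene of the decoding centre, Rps15, differed by -0.0311. Of all genes 63.5% were lower, with a median of -0.058, and these small groups were not tested against them. The large-subunit genes not described above, Rpl4, Rpl6, Rpl7a, Rpl8, Rpl10a, Rpl14 and Rpl35, ran from -0.14 to -0.0529 (log2), and 7 of 7 were lower. The remaining small-subunit genes, together with Rps10 at its brightest probe set, were Rps2, Rps3a1, Rps9, Rps15, Rps24, Rps26, Rps28 and Rps29. They ran from -0.14 to -0.0311, and 9 of 9 were lower. None passed, the smallest adjusted limma p among them being 0.447.

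**Figure D3:**
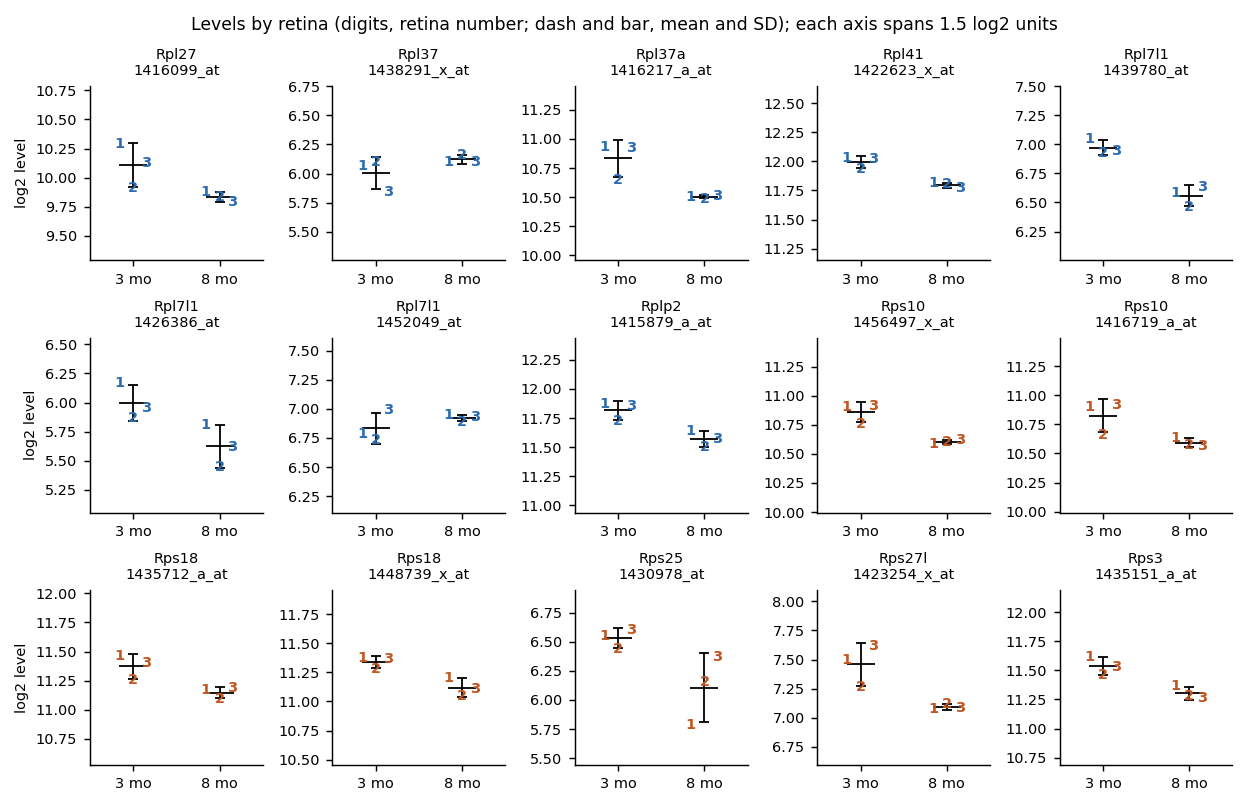
Log2 levels are plotted by retina for the 13 member probe sets with an unadjusted limma p under 0.05, the remaining Rpl7l1 probe set and Rpl37, digits giving the retina number and bars the mean and SD. Each axis spans the same log2 distance. The 13 lie lower at 8 months, while 1452049_at of Rpl7l1 overlaps between ages and Rpl37 lies narrowly higher.

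Probe sets of the same gene often disagreed. Of 22 genes with more than 1 kept probe set, 10 had all of them lower, 1 had all higher (Rps4x) and 11 had both signs, with a median gap of 0.156 between the extremes (log2). In 3 genes, Rpl7l1, Rpl41 and Rps3, the signs differed by a gap of 0.3 or more. Brighter probe sets went one way more often. Of 60 probe sets with a mean of 10 or more, 55 were lower, with a median of -0.116. Of 31 dimmer ones 17 were lower, with a median of -0.057. Among all probe sets at any level 59.4% were lower, and the share among equally bright ones was not taken. Over all 91 member probe sets level and difference correlated at a Spearman rho of -0.057, and over the 60 bright ones at 0.312. Within the bright ones the lower readings thus did not grow with level. Specific and less specific probe sets had like medians, -0.104 over 49 and -0.108 over 42. Over the 103 kept probe sets that name a further gene and are no members, 75 were lower, with a median of -0.064.

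**Figure D4:**
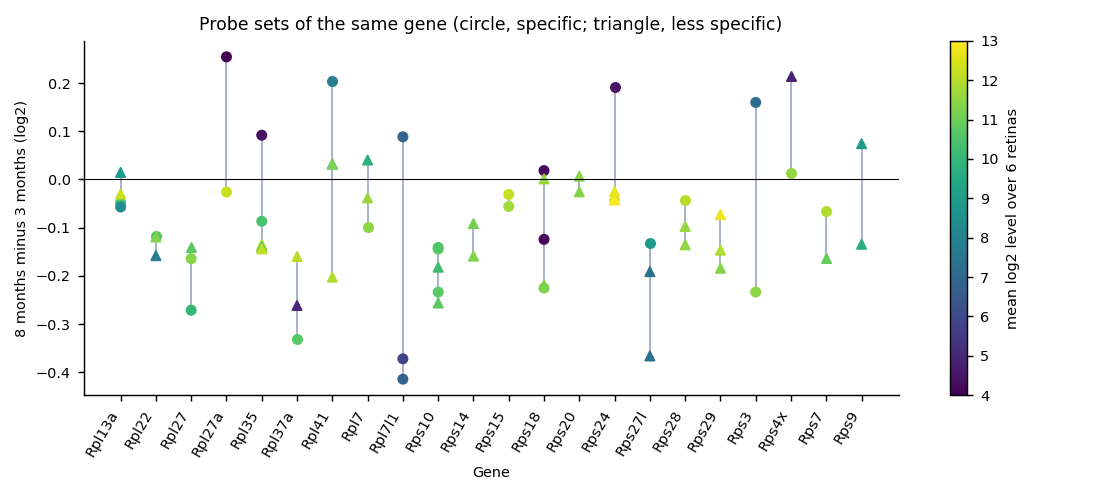
The difference between 8 and 3 months (log2) is plotted for every kept probe set of the 22 genes that have several, circles for specific and triangles for less specific probe sets, coloured by mean log2 level. The vertical lines join the extremes of a gene. They are longest for Rpl7l1, from -0.41 to 0.0885, and Rpl41, from -0.20 to 0.20.

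Other genes of protein synthesis, taken from lists of textbook members with 1 probe set per gene, were also mostly lower, and 0 of them passed limma's test adjusted over all probe sets. Of ribosome assembly factors, which process ribosomal RNA and fit the proteins onto it, 59 of 71 were lower and 12 higher, with a median log2 difference of -0.163. An unadjusted limma p under 0.05 was found for 16 lower and 0 higher of them, or 22.5% lower, where 11.5% of all genes were. Pes1, of the complex that matures the large subunit, read 6.32, 6.42 and 6.56 at 3 months (retinas 1, 2, 3) against 5.80, 5.72 and 5.94 at 8 months. Its ages stood well apart, with a log2 difference of -0.61 ± 0.1 (SE, n = 3 per age; limma, Benjamini-Hochberg adjusted p = 0.177). Emg1 and Tsr1, which act in small-subunit assembly, differed by -0.41 ± 0.12 and -0.35 ± 0.091 (log2, SE), also without overlap.

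Mitochondrial ribosomal proteins, which build the separate ribosome of mitochondria, showed a like count, and 65 of 76 were lower and 11 higher, with a median log2 difference of -0.160. An unadjusted limma p under 0.05 was found for 22 lower and 0 higher of them, or 28.9% lower, where 11.5% of all genes were. Mrps28 and Mrpl27 differed by -0.57 ± 0.10 and -0.54 ± 0.12 (log2, SE, n = 3 per age; limma, adjusted p = 0.179 and 0.218). Of initiation factors, which bring the messenger to the small subunit, 29 of 36 were lower and 7 higher, with a median log2 difference of -0.088. At the same unadjusted threshold 7 were lower and 0 higher, or 19.4% lower. For elongation factors and the TOR pathway this count was 0. Eif3l and Eif3d, subunits of the eIF3 scaffold, differed by -0.57 ± 0.15 and -0.36 ± 0.098 (log2, SE), without overlap.

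Elongation factors showed no common direction, and 5 of 9 were lower and 4 higher, with a median log2 difference of -0.062. Of other genes whose messengers carry the oligopyrimidine tract, 14 of 16 were lower and 2 higher, with a median log2 difference of -0.089. Among them Eif3h and Eif3f differed by -0.28 and -0.28, while Btf3, which guides nascent chains, was higher by 0.23, none passing. Of RNA polymerase I, which makes ribosomal RNA, and its factors, 10 of 13 were lower and 3 higher, with a median log2 difference of -0.087. Of the TOR pathway, 12 of 16 were lower and 4 higher, with a median log2 difference of -0.071, and Larp1, which binds the tract and holds such messengers back, differed by -0.19 ± 0.08 (log2, SE). Fau, a ribosomal protein made as a fusion with a ubiquitin-like protein, differed by -0.0481. Of the 16 tract-bearing genes, 3 are also in the list of elongation factors, 5 in that of initiation factors and 1 in that of assembly factors, so these lists are not separate. Set beside them, the median of the ribosomal proteins lay near those of initiation factors and of tract-bearing genes and nearer to 0 than those of assembly factors and mitochondrial ribosomal proteins, differences between lists that were not tested.

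**Figure D5:**
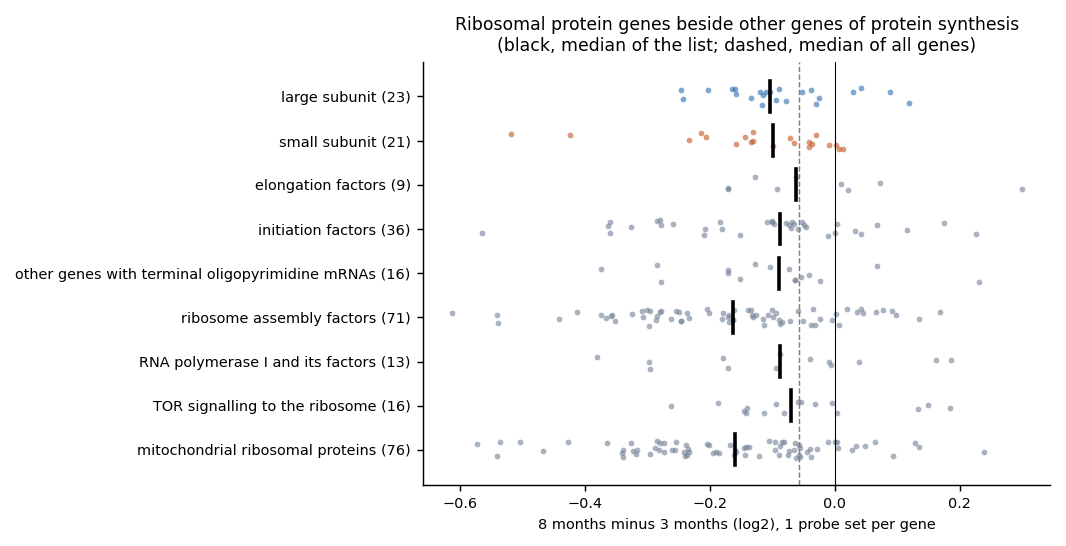
Each point is 1 gene's difference between 8 and 3 months (log2), for both ribosomal subunits and the other lists of protein synthesis, numbers of genes in brackets, with each list's median as a black line. The dashed line is the median of all genes at -0.058. Over the lists drawn, the medians run from -0.163 for assembly factors to -0.062 for elongation factors.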

How the data were processed

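The deposited values are log2 expression per probe set, made by the authors with GCRMA (version 1.1.0; R 1.9.0), as the submitters' processing notes list; options are not given in the sources used here. GCRMA corrects background from oligonucleotide sequence and compresses weak signals near a floor, which can shrink their differences. Retinas were rinsed of blood and their RNA amplified before labelling, per the labels' protocols.

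Control probe sets were left out, and 20973 of 45037 were kept by the filter (at least 3 values of 4 or more). Genes were named from the platform annotation, 34945 probe sets having 1 gene, 932 several and 9160 none listed. Age was tested in limma 3.58.1 (R 4.3.3, linear model with empirical Bayes variance), two-sided and without covariates. The p values were adjusted over every kept probe set by Benjamini-Hochberg. The fit was checked on simulated data, where it recovered 24.2% of changes of 0.5 and 79.4% of changes of 1 (log2). A change of 0.5 would thus often not pass. The number of arrays limits the precision. Lists are described by counts and medians, without a test. Genes were named by rule: from each subunit the 6 of smallest p in each direction, fixed sets of stalk, mutant, reference and paralogous genes, genes whose probe sets differ in sign by 0.3 or more, and up to 4 genes per related list; Rps10 and single probe sets beyond these were picked after their values were seen. Members, lists and alternatives were chosen with earlier results of these data known. Start windows come from RefSeq.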

Additional observations from a re-analysis of the deposited data

How the results depend on the processing

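In all, 0 member probe sets passed limma's adjusted threshold under each alternative run. Median centring gave 11 lower small-subunit genes and medians of -0.021 and -0.016 for the large and small subunit, and moved the median of all probe sets from -0.041 to 0.042. Without single retinas, 17 to 19 large- and 16 to 20 small-subunit genes were lower, with medians of -0.109 to -0.074 and -0.166 to -0.044. Entering eye side gave 15 and 16 lower genes, against 19 and 18, and medians of -0.058 and -0.084. Over the other scalings, filters and probe set choices, and without both lens-rich retinas, the medians were -0.120 to -0.094 and -0.131 to -0.091. With the replicate number as a block, the medians were -0.104 and -0.099 and 0 probe sets passed. At an unadjusted limma p under 0.05, 9 of 91 member probe sets were lower in that fit, where the share of all probe sets was not taken. Same-numbered retinas share only a number, their deviations correlating at -0.14, 0.06 and -0.28.

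Over 28 named genes, 426 of 469 values under alternatives kept their sign. The sign turned for 12 genes, none passing the test; beyond the choice of probe set the cause was not tested. Log2 differences that turned with eye side as a covariate were 0.00850 for Rpl13a, 0.0661 for Rpl27a, 0.0843 for Rpl7, 0.0426 for Rplp0, -0.00274 for Rps18, 0.0105 for Rps27 and 0.0522 for Rps7. With median centring they were 0.0531 for Rpl13a, 0.0569 for Rpl27a, 0.0449 for Rpl7, 0.0736 for Rps27 and 0.0175 for Rps7. Cyclic loess gave -0.00928 for Rps18 and 0.00715 for Rps27, and quantile normalization -0.0113 for Rps18, 0.00898 for Rps27 and -0.00168 for Rps4x. Without both lens-rich retinas they were -0.0254 for Rpl22l1, -0.0357 for Rps18 and -0.0328 for Rps20. Without less specific probe sets they were 0.20 for Rpl41 and -0.23 for Rps18. As the mean of all kept probe sets they were 0.11 for Rpl27a, 0.0162 for Rpl41, -0.23 for Rpl7l1, -0.11 for Rps18 and -0.00948 for Rps20. Without 1 retina, some values moved but kept their sign. Rpl37 was then 0.0400 (3-month 3), and Rplp0 -0.0879 (3-month 3) and -0.26 (8-month 1). Rpl37a was -0.0966 and Rps14 -0.10 (3-month 1), and Rps27l -0.23 (3-month 2) and -0.0702 (3-month 3). Without single retinas the ranges that crossed 0 were -0.0492 to 2.91e-04 for Rpl13a, -0.0201 to 0.0858 for Rpl22l1, -0.0723 to 0.0131 for Rpl27a, -0.0995 to 0.00377 for Rpl7, -0.0547 to 0.0551 for Rps18, -0.0368 to 0.0759 for Rps20, -0.0209 to 0.0103 for Rps27 and -0.00296 to 0.0227 for Rps4x.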
